A study of Rattus norvegicus with 10 samples.

Results

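The translation initiation and elongation factors measured here are the proteins that load an mRNA onto the ribosome and carry the ribosome along it. They were taken as every probe set of the array whose single gene symbol in the annotation was that of an eIF1 to eIF6 factor, an eEF1 or eEF2 factor, a CPEB protein, a cytoplasmic poly(A)-binding protein or a PAIP protein, with the kinases of eIF2 left out. The rule took 99 probe sets of 63 genes, out of 31042 probe sets tested, of which 20826 carried a single symbol. Eif5 and Cpeb2, the genes that lead the group in the study's own list, were not among them by this rule. The 3 probe sets of Eif5 also carry the symbol of its pseudogene Eif5-ps1, and the annotation gives no probe set the symbol Cpeb2, so both are described beside the members.

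The samples were resident macrophages washed from the peritoneum of rats of the strain Hsdcpb:WU (Wistar), kept on the plate after a short adhesion step that, per the labels, leaves mostly macrophages. Mye-macrophages had been given 100 µg/ml myelin for 3 days, and control macrophages none. IFNγ and IL-1β (100 ng/ml) followed for 9 hours in both, so the controls are also stimulated cells. Each group held 5 samples on 5 Affymetrix rat arrays, numbered as replicates 1 to 5, and a pair here means the control and the mye-macrophage sample that share a number. Whether they came from separate animals is not given in the labels. The p-values of fits with the pair as a term rest on the spread of the differences from pair to pair. Those of fits without it, and of the permutation tests, rest on the spread between samples. Either spread may be technical. In the limma fits used below, the spread of each probe set is drawn toward that of all probe sets. The SEs and p-values of those fits are thus not those of a probe set taken alone. In RNA from whole cultures, fewer cells of a type and less RNA per cell cannot be told apart.

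Initiation begins when eIF2 brings the initiator tRNA to the small ribosomal subunit, eIF3 and eIF1A prepare that subunit, and the eIF4 complex binds the cap of the mRNA and unwinds it. eIF5 triggers GTP hydrolysis by eIF2 at the start codon, and eIF5B joins the large subunit. Elongation then runs on eEF1A, which delivers each aminoacyl-tRNA, and eEF2, which moves the ribosome on. Poly(A)-binding and CPEB proteins tie the tail of an mRNA to this process. In macrophages part of the control of cytokine output is known to act at initiation.

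Few of these factors were called as changed in mye-macrophages. The call rests on limma, fitted with the pair as a fixed term (the blocked fit), and needs an adjusted p under 0.05 over the 15521 probe sets that varied most between arrays (50% of those tested). Of the 99 member probe sets 64 were among these and could be called. Cpeb1 was called higher and 1 probe set of Eif4g1 lower, and the other 62 of the 64 were not called. In all, 418 of the 15521 probe sets were called (2.69%), 0.792% higher and 1.9% lower, so 2 of 64 is close to that share. Neither call remained without the block, where limma called 0 probe sets of the whole table (at an unadjusted p under 0.05, 3 members were higher and 8 lower, beside 2.11% and 2.35% of all tested probe sets), and neither passed when p-values were adjusted over all 31042 probe sets, where 0.412% were called.

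The log2 differences of the members, mye-macrophages minus control macrophages, had a median of -0.03, with an SD over probe sets of 0.17 (0.15 over all tested). They were below 0 for 66 of the 99 (66.7%), while 48.4% of all tested probe sets were below 0, with a median of 0.00. The members were brighter than most tested probe sets (median signal 6.79 against 2.32), so the shares in this paragraph compare sets unlike in signal. Between signals of 6 and 9 the median difference was -0.03 for members and -0.02 for all tested. At an unadjusted p under 0.05 in the blocked limma fit 11 members were lower and 7 higher, which may be read beside 6.62% and 5.51% of all tested probe sets. The difference had the same sign in all 5 pairs for 10 members that were lower (6.59% of all tested) and 6 that were higher (6.16%). Eif4g1 and Eif3a, on 1 probe set each, were the only members that differed by more than 1.5-fold, beside 164 of the 31042 tested probe sets. With 1 probe set per gene, the brightest, 41 of 63 genes were below 0 with a median of -0.02, from -0.32 for Eif4ebp2 to 0.36 for Cpeb1.

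**Figure D1:**
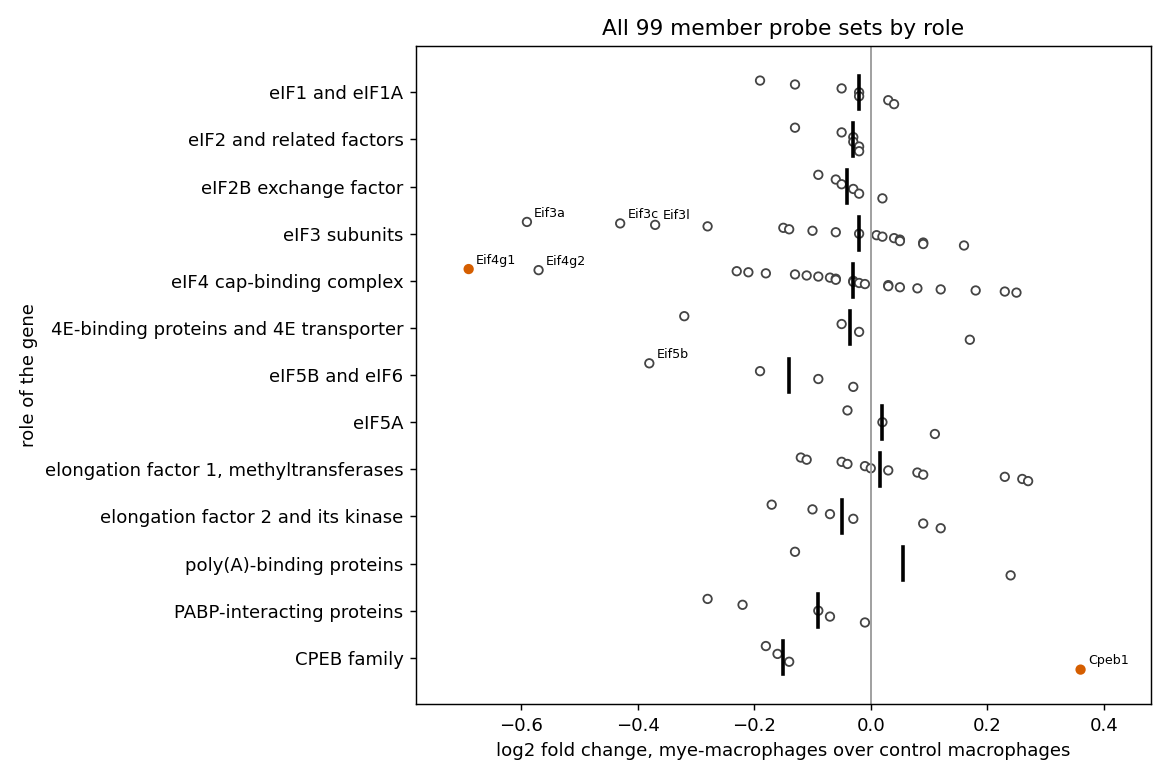
Log2 fold change of each of the 99 member probe sets, mye-macrophages over control macrophages (x axis), by the role of the gene (y axis). Each circle is a probe set, filled where it was called in the blocked limma fit, and the black bar is the median of the role. The medians lie between -0.15 (CPEB family) and 0.06 (poly(A)-binding proteins), and the probe sets below -0.35 belong to Eif4g1, Eif3a, Eif4g2, Eif3c, Eif5b and Eif3l.

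Start sequences of the genes are shown for the elongation factors, because mRNAs of the translation machinery commonly begin with a C followed by a run of pyrimidines (the TOP motif), and for Eif4g1, Cpeb1 and Eif5, on whose probe sets the results turn. Each is the 30 bases from 8 before to 22 after the annotated start in RefSeq (rat build GRCr8), 5′ to 3′ on the strand of the gene. Capitals mark a C followed by at least 5 bases that are each C or T, searched on that strand only.
Eef1a1, chr8:88225048-88225077, minus strand: ggacgttCTTTTTCgcaacgggtttgccgt
Eef1b2, chr9:72074083-72074112, plus strand: ccggtcccggCCCTTTTTCTCCCTCagcgc
Eef1g, chr1:215289807-215289836, plus strand: gcggaatcaccatggcggctggggtaagtt
Eef2, chr7:9189217-9189246, minus strand: gcagccgccgccatcgtcggcgcgCTTCCC
Eef1a2, chr3:188652612-188652641, minus strand: gtacatctctgcagctgcgtCCTCTCggat
Eif4g1, chr11:93746346-93746375, minus strand: gcagctccgCCCTCTgcgccggtcacgtgg
Cpeb1, chr1:144816242-144816271, minus strand: gcccgcccgccagtcccttagggccacgcc
Eif5, chr6:136410325-136410354, plus strand: ccgagggtagcttgagcgcggcggcggcgt
A run was found in the windows of 4 of the 5 elongation factors and of Eif4g1, and not in those of Eef1g, Cpeb1 and Eif5. The search covered the whole window, so a run need not lie at the start. That of Eef1a1 spans the annotated start, and those of Eef1b2 and Eif4g1 begin just past it. The run of Eef2 is the last 6 bases of its window, and that of Eef1a2 also lies well past the start. Neither is shown to be a TOP motif. The share with a run was 20.1% over all 33469 annotated starts, and over the 63 starts of the 58 member genes that matched it was 28.6%. The match is a description of these letters around the annotated start, and the start used in these macrophages was not measured.

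Eif4g1 encodes the scaffold of the cap-binding complex, to which the cap-binding protein, the helicase, eIF3 and the poly(A)-binding protein all attach. Its probe set 1390340_a_at read, as log2 signal, 5.92, 6.09, 5.60, 5.10 and 5.58 in control replicates 1 to 5 and 5.00, 5.84, 5.41, 3.94 and 4.63 in the mye-macrophages. Every mye-macrophage sample was below its partner, but the groups overlapped, since replicate 2 of the mye-macrophages was above 3 of the controls and replicate 3 above 1 of them. The means were 5.66 ± 0.38 and 4.97 ± 0.73 (SD, n = 5 each), and the signal fell by 0.69 on the log2 scale (SE 0.14, 95% interval -1.01 to -0.37, 0.618-fold), and the blocked limma fit gave an adjusted p of 0.0391. Without the block the adjusted p of limma was 0.743, and the exact two-sided permutation test over samples gave p = 0.0952. The call was kept only without pair 3 (difference -0.82, limma adjusted p = 0.0166), and it was lost without pair 1, 2, 4 or 5, where the adjusted p lay between 0.0685 and 0.136 and the difference between -0.80 and -0.58.

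The other 3 probe sets of Eif4g1 did not show this. The brightest had a difference of 0.05 (mean signal 7.82), and the others had 0.12 (3.75) and 0.08 (2.22). The 4 probe sets thus spanned 0.81 on the log2 scale, the widest range among the member genes, so the fall is a property of 1 probe set and not shown for the gene. RefSeq lists 3 pseudogenes of Eif4g1, and which transcript the probe set reads was not tested.

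Cpeb1 encodes a protein that binds U-rich elements near the end of mRNAs and controls the length of their poly(A) tail. Its single probe set (1392996_at) was dim, at a mean of 2.54, close to the median of 2.32 over all tested probe sets. It read 2.20, 2.52, 2.07, 2.52 and 2.52 in control replicates 1 to 5 and 2.52, 2.84, 2.54, 2.83 and 2.89 in mye-macrophages. All pairs were higher by similar amounts, from 0.31 to 0.47, and the groups met at 2.52, where the lowest mye-macrophage sample lay with 3 of the controls. The signal rose by 0.36 (SE 0.07, 95% interval 0.21 to 0.50), and limma gave an adjusted p of 0.028 with the block and 0.581 without it. The exact two-sided permutation test gave p = 0.0159. The call was kept without pair 3 (adjusted p = 0.043) and lost without pair 1 (0.0863) or pair 2 (0.075), and without pair 4 or pair 5 the probe set was no longer among the variable ones, in each case by the blocked limma fit. No detection call was used here, so whether the mRNA was present in these cells was not tested.

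**Figure D2:**
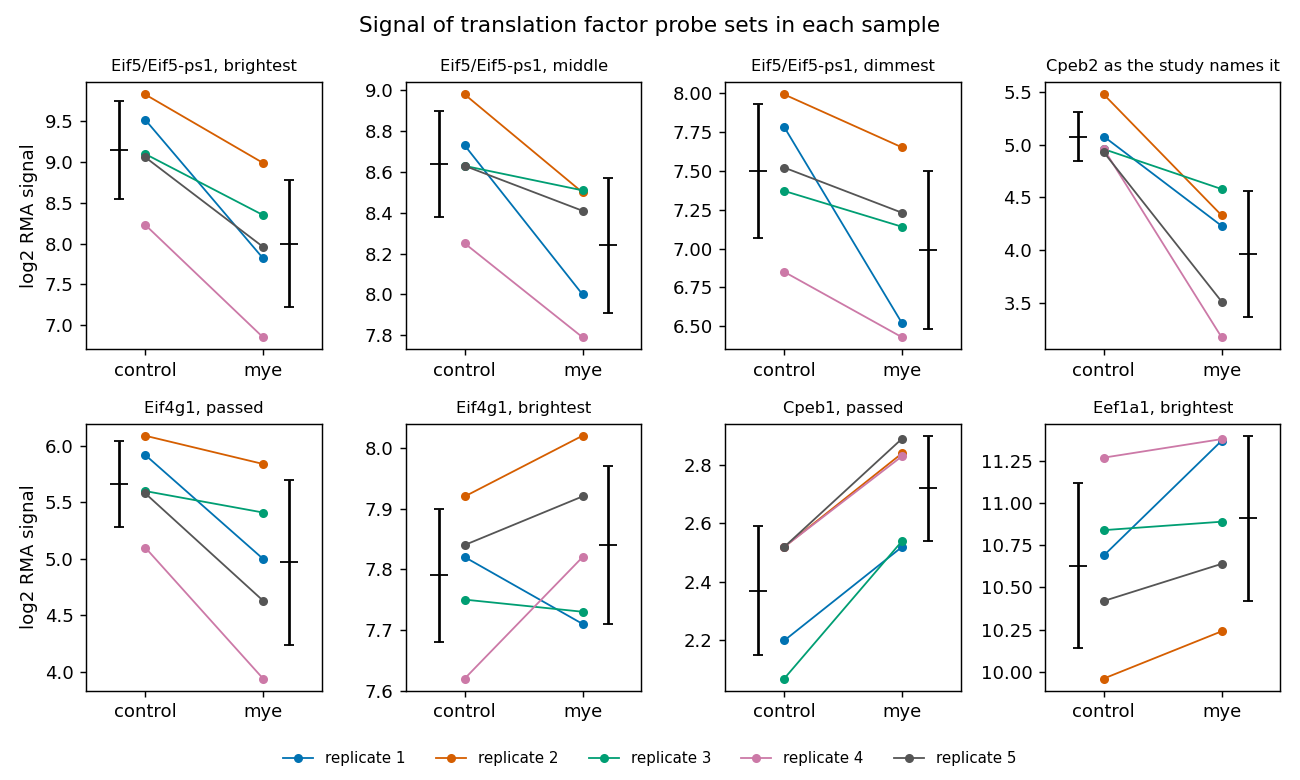
Log2 RMA signal (y axis) of 8 probe sets in each sample, control macrophages and mye-macrophages (x axis), with a line joining samples of the same replicate number and the mean ± SD of each group (n = 5) beside the points. Each panel has its own scale. The probe set of Eif4g1 that passed lies lower in every mye-macrophage sample than in its partner while its brightest does not, and Cpeb1 lies higher in all pairs. Cpeb2 as the study names it, a probe set chosen by the study on these samples, has no overlap between groups (0.283% of all tested probe sets in this direction).

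Of the CPEB relatives, Cpeb4, the brightest of the family, had differences of -0.14 and -0.18 on its probe sets. The brighter one read 8.77, 8.85, 8.53, 8.37 and 8.85 in controls and 8.23, 8.70, 8.69, 8.22 and 8.84 in mye-macrophages, with wide overlap. Cpeb3 had -0.16. None of these passed (limma adjusted p between 0.257 and 0.465 with the block). Thus 3 of the 4 CPEB probe sets were below 0 and the 1 that passed was above it.

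Among the factors that carry the initiator tRNA, no probe set passed. The 6 genes of the eIF2 group, Eif2s1, Eif2s2, Eif2s3, Eif2s3y, Eif2a and Eif2d, had differences from -0.13 (Eif2s1, lower in 5 of 5 pairs) to -0.02. Eif2s2, the beta subunit, read 9.30, 9.30, 9.23, 9.25 and 9.28 in controls and 9.18, 9.22, 9.23, 9.31 and 9.31 in mye-macrophages. The samples of both groups lay close together, and the difference of -0.02 had a 95% interval of -0.17 to 0.12. The subunits of eIF2B, which reloads eIF2 with GTP, had differences from -0.09 to 0.02 over 6 probe sets of 5 genes. Its subunit gene Eif2b4 read 6.75, 7.04, 6.61, 6.38 and 6.67 in controls and 6.68, 7.05, 6.56, 6.39 and 6.63 in mye-macrophages, so that replicates differed more from each other than partners within a pair did.

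The eIF1A group, which opens the small subunit for scanning, also had no call over 7 probe sets of 4 genes (-0.19 to 0.04). The brightest probe set of Eif1a read 8.26, 8.32, 8.26, 8.08 and 8.34 in controls and 8.03, 8.32, 8.14, 8.24 and 8.40 in mye-macrophages, with no common direction. A dimmer probe set of the gene had -0.19 (SE 0.14) and another had -0.13 (SE 0.10).

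The eIF3 complex binds the small subunit and bridges it to the eIF4 scaffold, and its subunits had a median of -0.02 over 17 probe sets of 11 genes, 9 of them below 0, with no call. Eif3m read 9.50, 9.59, 9.36, 9.43 and 9.47 in controls and 9.53, 9.57, 9.42, 9.43 and 9.50 in mye-macrophages. This subunit was thus nearly level across samples (difference 0.02, 95% interval -0.12 to 0.16). The bright probe sets of Eif3f, Eif3h, Eif3i, Eif3b and Eif3k had differences between -0.02 and 0.16, and Eif3d had -0.15 (SE 0.08).

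The lowest differences of the complex were on dimmer probe sets of its core subunits Eif3a and Eif3c and of Eif3l (-0.37, SE 0.21). The dimmer probe set of Eif3a (1379485_at) read 5.70, 5.87, 5.26, 5.13 and 5.29 in controls and 4.68, 5.67, 5.27, 4.07 and 4.61 in mye-macrophages. Pairs 1, 4 and 5 were lower by 0.68 to 1.06 on the log2 scale and pair 3 not at all. The difference was -0.59 (SE 0.15, adjusted p = 0.073 in the blocked limma fit), against -0.10 on the brighter probe set (8.13). The dimmer probe set of Eif3c (1397674_at) read 8.13, 7.95, 7.64, 7.53 and 7.66 in controls and 7.42, 7.76, 7.66, 7.10 and 6.82 in mye-macrophages. Again pairs 1, 4 and 5 were the low ones and pair 3 was level. Its difference was -0.43 (SE 0.12, limma adjusted p = 0.0957 with the block), against 0.01 on the brighter one (9.23).

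The eIF4 group, with the cap-binding proteins, the scaffolds and the helicases, had 23 probe sets of 11 genes, 15 of them below 0, with a median of -0.03 and only the Eif4g1 call. Eif4e, the cap-binding protein itself, had -0.03, -0.06 and -0.02 on its 3 probe sets. Eif4e2, a cap-binding relative that acts as a repressor, had 0.25 (SE 0.10, limma adjusted p = 0.2 with the block) and was higher in 4 of 5 pairs. The helicase gene Eif4a1 had 0.03, while its paralog Eif4a2 had -0.18 on the bright probe set, lower in 5 of 5 pairs, and -0.21 on a very dim one. The helicase cofactors Eif4b and Eif4h had between -0.23 and -0.03.

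Eif4g2, a relative of Eif4g1 that lacks the site for the cap-binding protein, has the brightest probe set of the initiation factors. It read 10.50, 10.53, 10.38, 10.25 and 10.48 in controls and 10.22, 10.47, 10.36, 10.10 and 10.43 in mye-macrophages. All pairs were lower, by 0.28 in pair 1 and by 0.14 or less in the others, with overlap between the groups (difference -0.11, SE 0.07). Its dimmest probe set (mean 4.39) read 5.09, 4.98, 4.36, 4.61 and 4.35 in controls and 3.53, 4.22, 4.74, 4.41 and 3.63 in mye-macrophages. There pair 1 was lower by 1.56 and pair 3 was higher, and the difference of -0.57 had an SE of 0.22 and a limma adjusted p of 0.185 with the block.

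The 4E-binding proteins hold the cap-binding protein away from the scaffold when mTOR is inactive, and they differed from each other in sign without passing. Eif4ebp2 read 6.26, 6.51, 6.07, 6.20 and 6.20 in controls and 5.71, 6.11, 6.19, 5.78 and 5.86 in mye-macrophages. It was lower in all pairs but pair 3, at -0.32 (SE 0.10, limma adjusted p = 0.115 with the block). Eif4ebp1 read 7.10, 6.91, 7.18, 7.70 and 7.22 in controls and 7.62, 7.19, 7.18, 7.91 and 7.09 in mye-macrophages. It was higher in pairs 1, 2 and 4, at 0.17 (SE 0.10). Eif4ebp3 had -0.02 and Eif4enif1, which shuttles the cap-binding protein to the nucleus, had -0.05.

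Eif5b, the GTPase that joins the ribosomal subunits, lay just outside the threshold. Its probe set 1395237_at read 6.83, 7.12, 6.72, 6.65 and 6.71 in controls and 6.19, 6.74, 6.63, 6.32 and 6.23 in mye-macrophages. Every pair was lower, pair 3 by the least, and mye-macrophage replicate 2 alone reached the range of the controls. The difference was -0.38 (SE 0.09, 95% interval -0.57 to -0.19), and limma gave an adjusted p of 0.0507 with the block and 0.581 without it. Its other probe sets, of which one was of the same brightness (6.68), had -0.09 and -0.19. Eif6, which keeps free large subunits from joining, read 9.21, 9.24, 9.08, 9.06 and 8.88 in controls and 9.06, 9.18, 9.01, 9.11 and 8.96 in mye-macrophages, a difference of -0.03. Eif5a, the hypusine-bearing factor that helps the ribosome through difficult peptide bonds, read 9.34, 9.17, 9.18, 9.28 and 9.17 in controls and 9.19, 9.11, 9.25, 9.26 and 9.14 in mye-macrophages. Both were level within 0.16 in every pair.

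The probe sets that carry both Eif5 and Eif5-ps1 had differences of -1.15, -0.40 and -0.51. Eif5 is the factor that activates the GTPase of eIF2 at the start codon. The study chose it for its change in these samples, so its values are a description and support nothing about the group. The brightest of the 3 (1398846_at) read 9.52, 9.83, 9.10, 8.23 and 9.06 in controls and 7.82, 8.99, 8.35, 6.85 and 7.96 in mye-macrophages. Each mye-macrophage sample was below its partner by at least 0.75, yet replicates 2 and 3 of the mye-macrophages were above replicate 4 of the controls. The mean was 9.15 ± 0.60 in controls and 8.0 ± 0.78 in mye-macrophages (SD, n = 5 each), which is 2.23-fold lower (SE of the log2 difference 0.13). The second (1398845_at) read 8.73, 8.98, 8.63, 8.25 and 8.63 in controls and 8.0, 8.50, 8.51, 7.79 and 8.41 in mye-macrophages, at -0.40 (SE 0.09). The dimmest (1388206_a_at) read 7.78, 7.99, 7.37, 6.85 and 7.52 in controls and 6.52, 7.65, 7.14, 6.43 and 7.23 in mye-macrophages, at -0.51 (SE 0.14), of which pair 1 held the most. All 3 were lower in 5 of 5 pairs, but their sizes differed. RefSeq lists 11 pseudogenes of Eif5, and the part of the signal that comes from a pseudogene cannot be told apart from that of the gene.

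The probe set that the study names Cpeb2 (1396225_at), for a further CPEB protein, was also chosen by it on these samples. Its values, and the lack of overlap given below, are therefore a description and support nothing about the group. It read 5.08, 5.48, 4.96, 4.96 and 4.93 in controls and 4.23, 4.33, 4.58, 3.17 and 3.51 in mye-macrophages. Every mye-macrophage sample was below every control, as was so for 0.283% of all tested probe sets. Pair 3 had the smallest difference (-0.38) and pair 4 the largest (-1.79). The mean difference was -1.12 (SE 0.17), which is 2.17-fold lower and the opposite sign of Cpeb1. The other 2 shared probe sets, of Eif3e with Eif3el1 and of Eif2s3 with Eif2s3y, had -0.07 and -0.32.

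The elongation factors had no call, with 12 probe sets of 9 genes around elongation factor 1 and 6 of 2 genes around elongation factor 2. Eef1a1, which delivers the aminoacyl-tRNAs, has the brightest probe set of all members (1388110_at, mean 10.77). It read 10.69, 9.96, 10.84, 11.27 and 10.42 in controls and 11.37, 10.24, 10.89, 11.38 and 10.64 in mye-macrophages. Its second probe set (1370109_s_at) read 10.49, 9.75, 10.42, 10.96 and 10.09 in controls and 11.00, 9.93, 10.71, 11.11 and 10.24 in mye-macrophages. On both probe sets all pairs were higher, pair 1 the most, and the groups overlapped widely because replicates differed by more than 1 on the log2 scale. The differences were 0.27 (SE 0.09) and 0.26 (SE 0.08), with adjusted p-values of 0.156 and 0.112 in the blocked limma fit. With the beta-actin gap described below in the fit they were 0.11 and 0.20. RefSeq lists 20 pseudogenes of Eef1a1, whose transcripts the probes could share.

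The exchange factor subunits of elongation factor 1, Eef1b2, Eef1g and Eef1d, had 0.09, 0.08 and -0.04 on their brightest probe sets. Eef2, the translocase, read 9.04, 9.28, 8.71, 8.82 and 8.83 in controls and 9.09, 9.54, 8.81, 8.90 and 8.82 in mye-macrophages. It was higher in 4 of 5 pairs, at 0.09 (SE 0.07). Its kinase Eef2k, which switches it off, had differences of -0.17 to -0.03 on 4 probe sets. The runs shown above were thus present in the windows of Eef1a1, Eef1b2 and Eef2 (there well past the start) and absent in that of Eef1g. In the window of Eef1g an ATG follows the annotated start closely, and sequence further upstream was not searched. All of these genes had positive differences on their brightest probe set, while no window is shown for Eef1d (-0.04). No test joined the sequence to the difference.

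Eef1a2, the form of eEF1A found in muscle and neurons, was the only member whose groups did not overlap (0.451% of all tested probe sets did so in this direction). The probe set was near the floor, at 1.54, 1.34, 1.54, 1.45 and 1.41 in controls and 1.66, 1.70, 1.61, 1.74 and 1.72 in mye-macrophages. All mye-macrophage samples were above all controls. The difference was 0.23 (SE 0.07, limma adjusted p = 0.123 with the block), and another equally dim probe set had 0.00.

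The poly(A)-binding proteins were represented among the members by 1 gene, Pabpc4, whose 2 probe sets differed in sign. No probe set of Pabpc4 or of the PAIP genes was called. Pabpc4 read 7.16, 7.20, 7.06, 7.48 and 6.94 in controls and 7.39, 7.83, 7.14, 7.54 and 7.14 in mye-macrophages. All pairs were higher, pair 2 the most, at 0.24 (SE 0.09, limma adjusted p = 0.181 with the block), but a dim probe set of the gene had -0.13 (SE 0.17). Paip2 is an inhibitor that takes the poly(A)-binding protein off the tail. Its brighter probe set read 8.96, 9.28, 9.15, 8.82 and 9.05 in controls and 8.55, 9.15, 8.86, 8.77 and 8.86 in mye-macrophages. Its dimmer one read 7.80, 7.92, 7.82, 7.67 and 7.84 in controls and 7.32, 7.71, 7.66, 7.54 and 7.38 in mye-macrophages. Both were lower in 5 of 5 pairs, with 1 mye-macrophage sample of the dimmer probe set above the lowest control. The differences were -0.22 (SE 0.07) and -0.28 (SE 0.08), with adjusted p-values of 0.151 and 0.0944 in the blocked limma fit. Paip1, which promotes initiation, had -0.01 and -0.07, and Paip2b had -0.09.

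Where a gene had several probe sets, these often differed. For 21 of the 27 such member genes (77.8%) the dimmest probe set had a lower log2 difference than the brightest, and this was so for 53.9% of all 4525 genes with several probe sets. The median of dimmest minus brightest was -0.07 for the members and -0.01 for all. By mean signal, the 24 member probe sets between 3 and 6 had a median difference of -0.10 (all tested -0.02), the 47 between 6 and 9 had -0.03 (-0.02), and the 14 above 9 had 0.02 (0.00). The 14 below 3, close to the floor of the array, had 0.03 (0.02). Members were bright as a group, with a median signal of 6.79 against 2.32 for all tested probe sets.

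**Figure D3:**
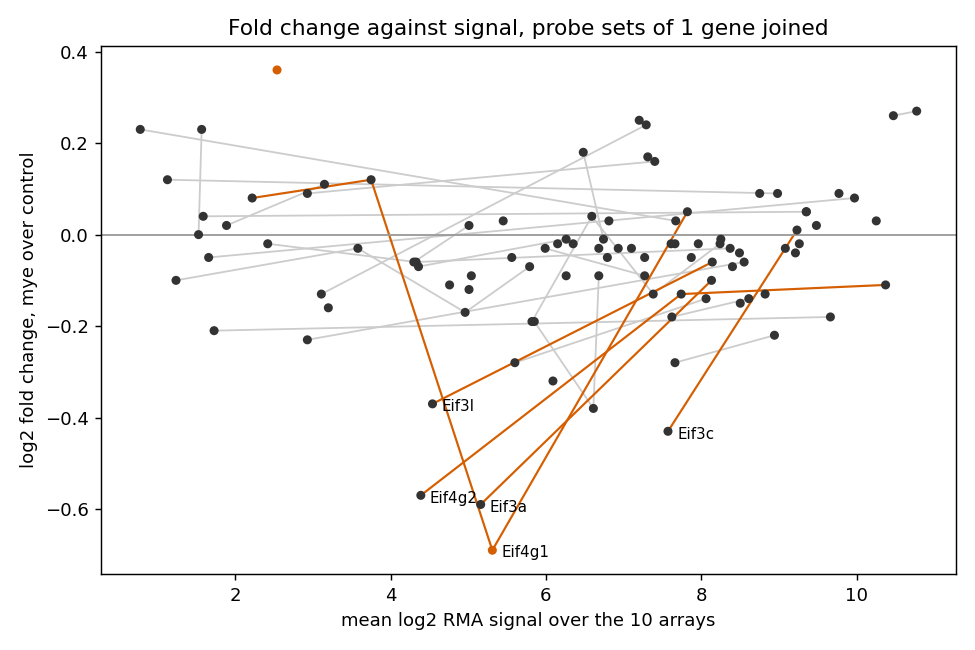
Log2 fold change, mye-macrophages over control macrophages (y axis), against the mean log2 RMA signal over the 10 arrays (x axis) for the 99 member probe sets, with probe sets of the same gene joined by lines, which are orange for Eif4g1, Eif4g2, Eif3a, Eif3c and Eif3l and grey for the other genes. The 2 orange points are the called probe sets (1 of Eif4g1, and Cpeb1), and all black points were not called. The low probe sets of these 5 genes lie at signals between 4.39 and 7.57, while their brightest lie between -0.11 and 0.05.

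The size of the differences depended on the pair. The median over the 99 members was -0.12 in pair 1, -0.06 in pair 2, 0.06 in pair 3, -0.02 in pair 4 and -0.02 in pair 5, with 64, 63, 31, 54 and 59 members below 0, while the median over all tested probe sets was within 0.01 of 0 in each pair. A measure of RNA quality, the log2 signal at the 3 prime end of beta-actin minus that at its 5 prime end (the gap), moved with this. It was larger in the mye-macrophages by 0.82 in pair 1, 0.45 in pair 2, 0.00 in pair 4 and 0.29 in pair 5 and smaller in pair 3 (-0.21), so that pair 1 had the largest gap and the lowest members and pair 3 the reverse. Over samples the gap was 3.02 ± 0.30 in controls and 3.30 ± 0.32 in mye-macrophages (SD, n = 5 each), and the exact permutation test, two-sided, gave p = 0.19. The same measure on Gapdh was 0.40 ± 0.14 in controls and 0.42 ± 0.13 in mye-macrophages (exact two-sided permutation test, p = 0.77), with differences of 0.22, 0.00, -0.23, 0.04 and 0.05 in pairs 1 to 5, so that pair 1 was again the highest and pair 3 the lowest while the group means were nearly level. When the gap of beta-actin entered the blocked limma fit as a covariate, the median over the members was 0.01 and no member was called (at an unadjusted p under 0.05, 4 members were lower and 3 higher, beside 3.84% and 3.03% of all tested probe sets), with 6 higher and 10 lower calls in the whole table. In that fit the differences of Eif4g1 (-0.62) and Cpeb1 (0.39) were close to those without the covariate, while that of the dimmest Eif4g2 probe set was -0.09 and that of the dimmer Eif3l probe set 0.10 (-0.37 without it). Other named differences were also nearer to 0 there, at -0.18 for Eif4ebp2 (-0.32 without the covariate), -0.26 for Eif5b (-0.38), -0.29 for Eif3c (-0.43), -0.45 for Eif3a (-0.59) and -0.28 for the dimmest probe set of Eif5 and its pseudogene (-0.51).

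**Figure D4:**
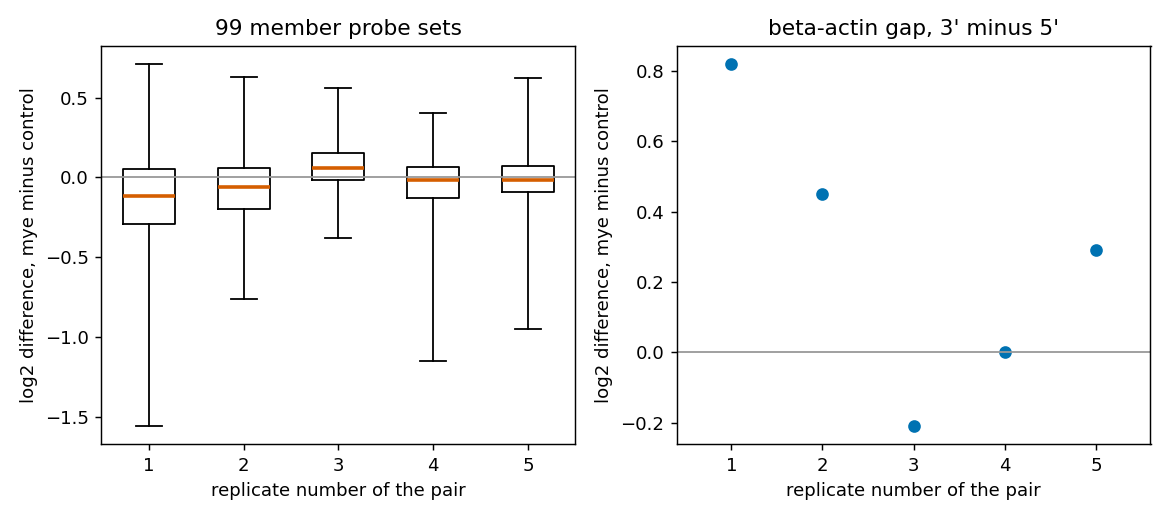
Left, log2 difference of the 99 member probe sets in each pair, mye-macrophage minus control (y axis), by replicate number (x axis), with boxes for the quartiles, an orange line for the median and whiskers to the lowest and highest member. Right, the same difference of the beta-actin gap between its 3 prime and 5 prime control probe sets. Pair 1 has the lowest median (-0.12) and the largest gap difference (0.82), and pair 3 the highest median (0.06) and the lowest gap difference (-0.21).

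Genes of the pathways around these factors were taken in 8 lists of 62 genes, of which 53 were measured. Their brightest probe sets gave 0 calls in either direction in the blocked limma fit. At an unadjusted p under 0.05, 5 were lower and 2 higher, beside 6.62% and 5.51% of all tested probe sets. The 4 kinases that phosphorylate eIF2 and slow initiation under stress were all below 0, from -0.18 (Eif2ak3) to -0.05 (Eif2ak2). Of the genes that act after this phosphorylation, the transcription factor Atf4 had -0.20, lower in 5 of 5 pairs, and Trib3 had 0.18, higher in 5 of 5 pairs. On the mTOR side the ribosomal protein gene Rps6 had 0.19 (SE 0.07), higher in 5 of 5 pairs, and Pdcd4, an inhibitor of the eIF4A helicase, had -0.19. Gigyf2, the partner of Eif4e2 in repression, had -0.35 (SE 0.13), and the deadenylase gene Cnot6 (-0.23) and Tob1, which recruits that complex (-0.22), were lower in 5 of 5 pairs. The unadjusted p-values of those 3 were 0.0198, 0.012 and 0.01 in the blocked limma fit. Their adjusted p-values in that fit were 0.164, 0.132 and 0.123, so none passed.

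Of the 12 macrophage markers, Lyz2 and Cd68 were among the brightest (12.27 and 11.29), Cd163 was near the floor (1.06), and the dim Mrc1 was called higher (0.71). Of 9 measured myelin genes Mobp (3.60) and Bcas1 (1.76) were called higher on their brightest probe sets. Mbp was called higher on 1 of its 3 probe sets (3.37), while its brightest had -0.20. The summed signal of the list was 174 to 214 in controls and 218 to 283 in mye-macrophages on the linear scale. Lists of T and NK cells, B cells, mast cells, granulocytes, mesothelial cells and fibroblasts had 0 calls by blocked limma. Cd2 and Blk were higher at an unadjusted p under 0.05, as were 5.51% of all tested probe sets. The summed signals overlapped between the groups, such as 28 to 375 and 30.9 to 399 for mast cells and 88.9 to 133 and 86.2 to 158 for T and NK cells. The mast cell list had a median log2 difference of 0.18, with 1 of its 8 genes below 0. The medians of the other lists just named lay between -0.05 and 0.04. The defining B cell gene Ms4a1 and the granulocyte gene S100a8 were near the floor in these samples (0.81 and 1.35). Some markers of other cells were not, such as Lck of T cells (5.78), Cpa3 of mast cells (5.13) and Dcn of fibroblasts (3.65). The part of these cells or of RNA brought in with the myelin in the values above was not tested.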

How the data were processed

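Per the labels and the study's methods, total RNA of 5 control and 5 mye-macrophage samples was hybridised to Affymetrix rat genome arrays, and the authors made RMA values from the scans with the affy package. The deposited values are on the log2 scale, from -0.04 to 13.09, with array medians of 2.30 to 2.35, lower than RMA values usually are, for a reason not given in the sources used here. A signal is therefore read only against other probe sets of these arrays. The 57 control probe sets were left out and 31042 tested.

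The test was lmFit and eBayes of limma 3.58.1 (R 4.3.3), with replicate number as a fixed block and Benjamini-Hochberg adjustment over the more variable 50% of probe sets (by interquartile range over the 10 arrays), a filter of the size that the methods name. The methods name an unpaired test, which was an alternative. The labels do not say what the replicate numbers stand for. Samples with the same number deviated together from their group means (correlations 0.404 to 0.791 for the 5 pairs, over the minimum of 0.1 set for this check, and at most 0.279 across numbers), and 10 of 10 samples correlated best with their partner. The precision is limited by the number of arrays (5 per group). Arrays give no count of reads. Exact permutation tests were run with SciPy 1.17.1 in Python 3.11.15. The fit was tested on simulated data.

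Genes were named by the array annotation. Values in every sample are given for called members, the 6 further members with the lowest unadjusted p, the brightest probe set of each role, and the probe sets the study names Eif5 and Cpeb2. Eef1a2 and the dimmest probe set of Eif4g2 were added after their values were seen. The members, roles and lists were chosen with earlier results of these data known. Start sequences and pseudogene counts come from RefSeq (GRCr8). Genes of the family that the annotation does not name were not analysed here, nor were protein sequences. Alternatives covered the block, the test, the filter, scaling, the variance prior, array weights, the beta-actin gap, the probe set per gene and each pair left out.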

Additional observations from a re-analysis of the deposited data

Results flagged for a closer look

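Each group of 5 samples of the 25 named probe sets was examined for a sample far from the others, 50 groups in all, and chance sets apart about 1 in 20 such groups. In 1 group a sample stood apart. On the probe set that the study names Cpeb2, control replicate 2 read 5.48 (log2), while the nearest of the other controls read 5.08 and the rest lay between 4.93 and 4.96. The log2 difference of this probe set was -1.12 with all pairs and -1.11 without pair 2. The study chose the probe set on these samples, so these values are a description only.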

How the results depend on the processing

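The log2 difference of 25 probe sets was recomputed in 16 settings, giving 400 values, of which 343 kept their sign and their side of the threshold, 33 kept the sign and lost the call, 17 kept the sign and gained one and 7 changed sign. With the main settings only Eif4g1, Cpeb1, the brightest probe set of Eif5 and that of Cpeb2 passed. Only these could lose a call, and all 33 losses were theirs. Those of Eif5 and Cpeb2 are not members and were chosen by the study on these samples. Most of the 343 were thus uncalled probe sets that stayed uncalled. The sign changes were of uncalled members. Once the beta-actin gap joined the replicate block in the fit, Cpeb4 went from -0.14 to 0.02, Eif1a from -0.02 to 0.02, Eif2s2 from -0.02 to 0.02 and Eif5a from -0.04 to 0.01. The others were Eif1a with array weights (0.01), and Eif1a with a pair left out, where it lay between -0.07 and 0.03. The median over the members lay between -0.05 and 0.01 in all settings.

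The calls of Eif4g1 and Cpeb1 rest on the pairing as a fixed term and also on other settings named below. With no replicate block, and with the methods' unpaired test, 0 members were called higher and 0 lower, and 0 of the whole table were called. The members' counts were also 0 and 0 with a random block (4 higher and 7 lower in the whole table), with the beta-actin gap in the fit (6 and 10), with no variance filter (39 and 89 of 31042) and with a paired test of each probe set by itself (0 and 0). Array weights gave 3 lower (402 of 15521 in the whole table), quantile normalization 2 lower (292), a variance prior with trend and robust 2 higher and 7 lower (387 and 654), and the brightest probe set of each gene 0 lower. With a pair left out the counts ranged from 0 to 1 higher and from 0 to 6 lower, and only without pair 3 were any members called. The whole table had 141 higher and 531 lower without pair 3, and 11 to 32 higher and 20 to 40 lower without any other pair. The cause of these changes was not tested.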
